A study of Mus musculus with 4 samples.

Results

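Genes of MHC class I presentation were examined in splenic B220+IgD- cells 10 days after mice received sheep red blood cells, an antigen that sets off germinal centers (GC). The genes were 9, named by symbol, out of 31053 counted: H2-K1, H2-D1, B2m, Tap1, Tap2, Tapbp, Psmb8, Psmb9 and Nlrc5. They were chosen with earlier results of these data in view, and their values were followed across the GC B cell subtypes named by the authors, across 4 genotypes, and across B and T cells that the authors left unnamed. All mice were 8-week-old females on a C57BL/6J background and carried 1 Cγ1-cre allele, which drives Cre recombinase from the γ1 heavy chain locus in B cells activated toward IgG1. WT mice had no floxed allele, C mice were Crebbp fl/+, K mice were Kmt2d fl/+, and CK mice carried both floxed alleles, so that C, K and CK are heterozygous losses. Each genotype is 1 mouse and 1 library. No difference between genotypes therefore has a replicate check, no test between genotypes was run, and all intervals of levels and of ratios over WT are 95% intervals that cover counting error only.

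MHC class I molecules show peptides from inside the cell to CD8 T cells. Proteasomes cut proteins, and in lymphocytes the catalytic subunits Psmb8 and Psmb9 take the place of constitutive ones to form the immunoproteasome. The transporter Tap1 and Tap2 carries the peptides into the endoplasmic reticulum. There tapasin (Tapbp) holds the transporter close to empty class I molecules, each made of a heavy chain (H2-K1 or H2-D1 in this strain) and the light chain B2m. Nlrc5 is the transactivator that opens class I promoters, and interferon raises most genes of the pathway. Dividing centroblasts (CB) of the GC dark zone become centrocytes (CC) of the light zone, where B cells present antigen.

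Of the 9 genes, 7 lie within the MHC region or close to it on chromosome 17 of GRCm38, by the GENCODE annotation. Psmb9 (17, 34181987 to 34187764, minus strand), Tap1 (34187553 to 34197225), Psmb8 (34197721 to 34201454) and Tap2 (34203527 to 34216321) stand next to each other, and the Psmb9 and Tap1 genes overlap at their starts. H2-K1 spans 33996017 to 34000347 on the minus strand, Tapbp 33915899 to 33929292 and H2-D1 35262730 to 35267499. B2m is on chromosome 2 from 122147686 to 122153083 and Nlrc5 on chromosome 8 from 94434356 to 94527272. The heavy chains H2-K1, H2-D1 and the H2-Q genes are near-identical copies in parts, so that reads can be split between them or lost, and their levels are uncertain to that degree.

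Promoters of the members are shown for members whose levels moved in different directions in the results. The windows hold the 250 bases before the RefSeq start (GRCm38.p6), and 7 of the 9 members have an entry. Capitals mark matches, on either strand, to GGGGATTCC (a kappa B site, for NF-kB), TTTCACTTC and GAAANTGAAA (2 forms of interferon response element), TGACG (the core of the cyclic AMP response element) and CCAAT, which reads ATTGG on the other strand. No match overlapped another in the windows printed.
H2-K1, chr17:34000348-34000597, minus strand: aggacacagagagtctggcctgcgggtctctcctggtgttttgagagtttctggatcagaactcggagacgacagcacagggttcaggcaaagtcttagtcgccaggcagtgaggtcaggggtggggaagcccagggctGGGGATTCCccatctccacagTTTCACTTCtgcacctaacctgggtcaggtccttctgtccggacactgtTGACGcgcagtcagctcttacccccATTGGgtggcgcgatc
H2-D1, chr17:35262844-35263093, plus strand: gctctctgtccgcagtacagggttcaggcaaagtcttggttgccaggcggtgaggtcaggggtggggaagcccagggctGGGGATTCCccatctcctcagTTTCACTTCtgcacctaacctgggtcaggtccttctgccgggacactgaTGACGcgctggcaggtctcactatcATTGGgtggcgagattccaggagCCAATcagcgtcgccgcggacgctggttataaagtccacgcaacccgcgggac
B2m, chr2:122147437-122147686, plus strand: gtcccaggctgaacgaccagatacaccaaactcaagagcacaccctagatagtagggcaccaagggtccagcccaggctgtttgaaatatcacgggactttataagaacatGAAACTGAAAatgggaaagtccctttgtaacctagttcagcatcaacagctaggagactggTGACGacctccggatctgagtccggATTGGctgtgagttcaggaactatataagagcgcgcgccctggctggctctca
Tap1, chr17:34187306-34187555, plus strand: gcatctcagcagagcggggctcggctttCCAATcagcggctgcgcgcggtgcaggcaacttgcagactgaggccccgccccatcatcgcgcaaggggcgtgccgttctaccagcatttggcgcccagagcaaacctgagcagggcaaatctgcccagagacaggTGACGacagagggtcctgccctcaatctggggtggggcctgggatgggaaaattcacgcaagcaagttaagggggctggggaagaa
Psmb8, chr17:34197945-34198194, plus strand: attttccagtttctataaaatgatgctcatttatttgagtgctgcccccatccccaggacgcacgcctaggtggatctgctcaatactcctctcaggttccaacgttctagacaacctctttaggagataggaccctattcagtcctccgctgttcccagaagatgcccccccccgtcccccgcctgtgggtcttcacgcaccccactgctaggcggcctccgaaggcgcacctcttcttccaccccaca

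H2-K1 and H2-D1 each held GGGGATTCC, TTTCACTTC and TGACG in the same order, followed by ATTGG, and their longest shared run was 47 bases. B2m held GAAANTGAAA, TGACG and ATTGG in that order, and its longest run shared with H2-K1 was 8 bases. Tap1 and Psmb9 share 225 bases of their windows, which run in opposite directions, with 1 TGACG and 1 CCAAT. Tapbp held 2 CCAAT and none of the others, and Psmb8 held none of the 5 motifs in this window. The windows of H2-D1, Tapbp, Psmb8 and Psmb9 lie inside the GENCODE spans of these genes, so the bases before those spans were not searched. Among 32851 RefSeq promoter windows of the same length, GGGGATTCC was present in 0.213%, TTTCACTTC in 0.402%, GAAANTGAAA in 0.682%, TGACG in 17.8% and CCAAT in 33.8%. A match is a stretch of letters, not a measured binding site.

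The 4 libraries held 8071 to 12852 barcodes and 33270825 to 39803865 UMIs (molecular barcodes, by which copies of 1 captured transcript count once), and any pair shared 17 to 31 barcodes. Where 4 values follow each other here they stand for WT, C, K, CK. There were 183, 421, 645 and 1013 CB and 382, 515, 611 and 936 CC. A CB had a median of 5502, 4936, 5526 and 4604 UMIs, a CC one of 4741, 3498, 3811 and 2670, so CK was the shallowest library in both. Unannotated clusters gave 1398 to 3247 non-GC B-like and 1448 to 3002 T-like cells per library, and the members and other MHC genes were left out when clusters were made. T markers summed to 8008 to 8672 CPM (UMIs per 1000000 UMIs of the class) in T-like cells, 67.5 to 109.8 CPM in non-GC B-like cells, 64.9 to 84.7 CPM in CB and 164 to 209.7 CPM in CC. The 6 pan B markers summed to 359.6 to 467 CPM in T-like cells and 6711 to 7588 CPM in CB. Crebbp, a targeted gene, was at 64.4, 45.2, 42.9 and 39.9 CPM in CB, Kmt2d was at 24.9, 15.4, 8.53 and 16.1 CPM, and the 3' ends counted do not check deletion of an exon. Doublets called by Scrublet were kept.

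By CPM, both heavy chains and the light chain were lowest in GC B cells, intermediate in non-GC B-like cells and higher in T-like and natural killer (NK)-like cells. CPM is a share of a class's UMIs, and UMIs per cell differed between classes. In WT the median was 5502 in CB, 4741 in CC, 3299 in prememory, 2181 in non-GC B-like and 3264.5 in T-like cells. A higher CPM can therefore go without more UMIs of a gene per cell, which were not compared. Small unannotated clusters were high as well. Plasmacytoid dendritic-like cells had means over the libraries of 2772 (H2-K1), 3010 (H2-D1) and 1821 CPM (B2m). Myeloid-like cells were at 1858, 2527 and 1659 CPM, beside 2647, 2246 and 1662 CPM in T-like cells. H2-K1 in CB was at 821 CPM in WT (765 to 880.3), 596 CPM in C (563 to 629.6), 793 CPM in K (764 to 823) and 468 CPM in CK (448 to 488). In CC it was at 928, 739, 1051 and 742 CPM. In non-GC B-like cells it was at 1519, 1338, 1619.6 and 1189 CPM, and in T-like cells at 2828, 2312, 3074 and 2372 CPM. Within each of the 4 libraries the order was transitioning cells, CB, CC, prememory cells, non-GC B-like, T-like and NK-like cells, from low to high. Prememory cells, at 1066 to 1558 CPM, and non-GC B-like cells, at 1189 to 1619.6 CPM, overlapped between libraries, and so did CB, at 468 to 821 CPM, and CC.

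H2-D1, the other heavy chain of this strain, was at 1046, 893, 859 and 693 CPM in CB and at 1127, 1099, 1124 and 979.8 CPM in CC. It reached 2119, 2069.8, 2144 and 1878 CPM in non-GC B-like cells and 2368, 2197, 2271 and 2147 CPM in T-like cells, so these 2 classes stood close to each other. B2m was at 439, 424, 389 and 346 CPM in CB and 540.1, 599, 481 and 504 CPM in CC. It rose to 951, 1049, 929 and 960.0 CPM in non-GC B-like and 1603, 1740.0, 1617 and 1686 CPM in T-like cells. The 3 chains followed each other across the 38 combinations of library and class with at least 50 cells, with Pearson r on log2(CPM + 1) of 0.964 for H2-D1 and H2-K1 and 0.968 for B2m and H2-D1. These points share libraries and depth, and the values are a description.

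The 2 immunoproteasome subunits were higher in CB and CC than in prememory and non-GC B-like cells. Psmb8 was at 1095, 1002, 1170.4 and 1051 CPM in CB and 1103, 1052, 1173 and 1092 CPM in CC. It was at 623, 654, 689 and 663 CPM in non-GC B-like cells and 579, 621, 693 and 555 CPM in prememory cells, below each CB and CC value. Psmb9 was at 450.0, 399, 465 and 407 CPM in CB, 382, 406, 384 and 385 CPM in CC and only 216, 207, 179 and 195 CPM in prememory cells. No prememory value of either subunit reached a CB or CC value. The 2 subunits had an r of 0.873 with each other, and Psmb8 had an r of -0.461 with H2-K1.

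Of the transporter, Tap1 followed neither pattern, and tapasin lay nearer to the chains. Tap2 lay nearer to the immunoproteasome subunits, with r of 0.538 with Psmb8, 0.579 with Psmb9 and -0.02 with H2-K1. Tap1 was nearly level, at 112, 94.8, 108 and 85.6 CPM in CB, 135, 108, 109 and 111 CPM in CC and 118, 115, 99.1 and 106 CPM in non-GC B-like cells. Tap2 was at 102, 67.3, 79 and 75.2 CPM in CB and at 60.6, 50.2, 33.8 and 41.3 CPM in prememory cells, where 10 to 33 UMIs per library carry the value. Tapbp, which bridges the transporter and class I, was at 40.5, 42.3, 42.6 and 32.3 CPM in CB, 91.8, 87.6, 80.7 and 66.5 CPM in CC and 153, 138, 139 and 154 CPM in prememory cells, with no overlap between these 3 subtypes. Its r was 0.79 with H2-K1, 0.84 with H2-D1 and -0.574 with Psmb8. Nlrc5, the transactivator, rested on 2, 10, 7 and 12 UMIs in CB (2.08, 4.81, 1.99 and 2.55 CPM) and on 91, 92, 81 and 109 UMIs in T-like cells (18.2, 18.9, 16.7 and 17.2 CPM). It was the member seen least, and its differences among GC subtypes were not resolved at this depth.

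**Figure D1:**
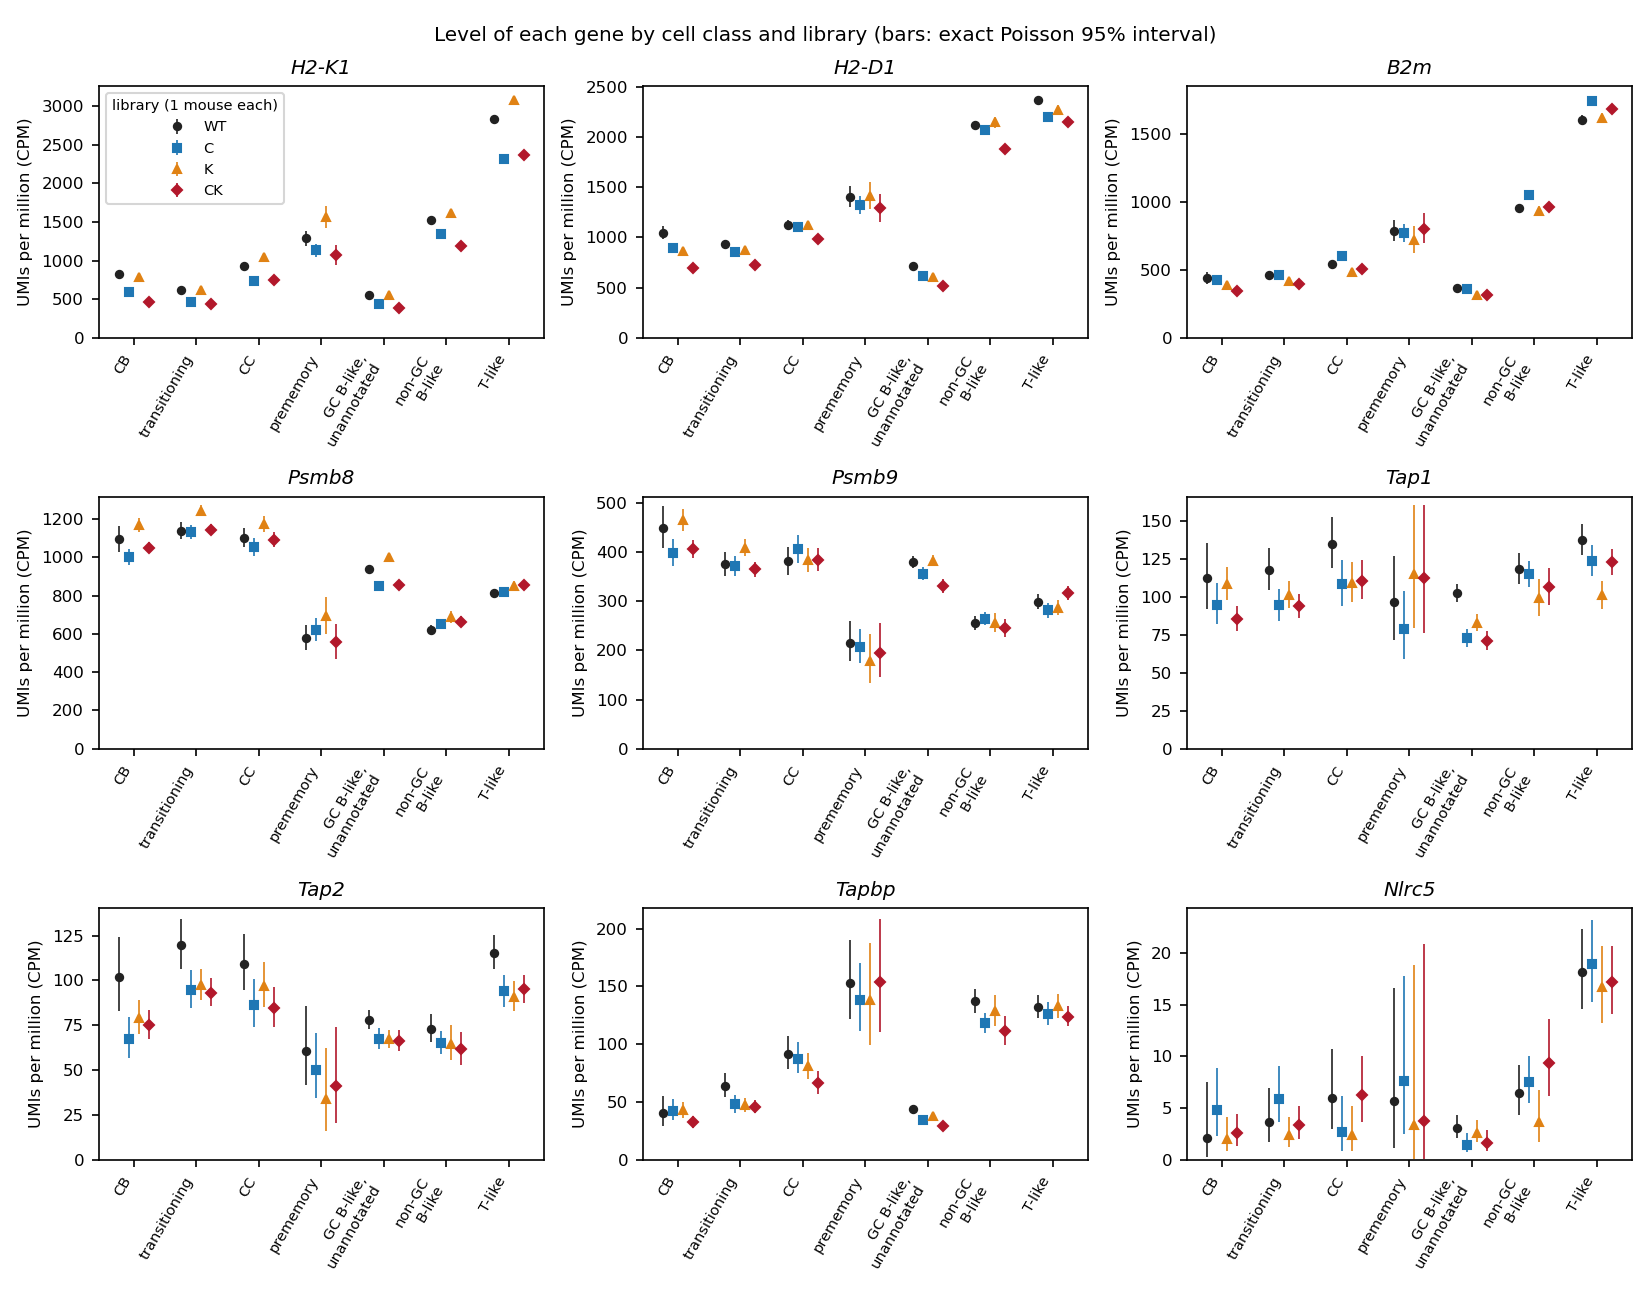
Level of each member in CPM (y axis) by cell class (x axis) and library, 1 mouse each, with exact Poisson 95% intervals. H2-K1, H2-D1 and B2m climb from the GC subtypes to T-like cells, while Psmb8 and Psmb9 are lower in prememory and non-GC B-like cells than in CB or CC.

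Whether members differed between stages of the GC was tested with counts summed per library and class, in edgeR's quasi-likelihood test with library as a block and Benjamini-Hochberg adjustment over 10622 genes. The 4 libraries are the replicates of a class difference, whatever their genotype, and the class names themselves rest on expression of the same cells. The folds, like CPM, compare shares of UMIs and not counts per cell. In CC over CB, 6 of 9 members were higher and 0 lower, where 23% of all genes were higher and 23.3% lower. The median log2 fold of the members was 0.40, against 0.02 over all genes. Tapbp rose most, with a log2 fold of 1.09 ± 0.11 (SE from the fit to all classes, n = 4 libraries, adjusted p = 4.09e-13). B2m rose by 0.49 ± 0.05 (adjusted p = 1.79e-11), H2-K1 by 0.47 ± 0.05 (adjusted p = 9.71e-11) and H2-D1 by 0.40 ± 0.05 (adjusted p = 8.69e-10), each higher in CC in 4 of 4 libraries. Tap2 at 0.30 (adjusted p = 0.00156) and Tap1 at 0.27 (adjusted p = 0.00644) also passed, but not after each cell was thinned to 2000 UMIs, with adjusted p of 0.117 and 0.0985, and Tap1 not without CK (0.0937).

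Psmb8, at 0.11 (adjusted p = 0.0538), Psmb9, at -0.07 (adjusted p = 0.322), and Nlrc5, at 0.69 ± 0.39 (adjusted p = 0.149), did not pass. Psmb8 lay at the threshold, and it passed without WT (adjusted p = 0.0074) and without CK (0.0379), as Nlrc5 did without C (0.0334). The constitutive catalytic subunits Psmb5, Psmb6 and Psmb7, whose places Psmb8, Psmb9 and Psmb10 take, fell in CC, by 0.31, 0.33 and 0.60 on the log2 scale (adjusted p = 3.06e-06, 1.31e-05 and 1.92e-08). Psmb10, the third immunoproteasome subunit, rose by 0.47 (adjusted p = 1.54e-08). Of 23 other genes of the class I pathway, 15 were higher in CC and 1 lower. The highest were Mr1, which presents vitamin metabolites, at 1.73, and Cd1d1, which presents lipids, at 1.44. Also higher were the proteasome activator subunits Psme1 at 0.45 (adjusted p = 1.39e-09) and Psme2 at 0.49 (adjusted p = 6.06e-11), and the peptide-loading chaperone Calr at 1.07 (adjusted p = 1.4e-21). The 1 lower was Rfxap, a subunit of the RFX complex that binds MHC promoters, at -0.80 (adjusted p = 3.17e-07). T markers were summed at 164 to 209.7 CPM in CC against 64.9 to 84.7 CPM in CB, and their part in these differences was not tested. In CB, the number of T markers at 0 was 3 of 8 in WT and 0 in the others, and in CC it was 1 of 8 in C and 0 in the others.

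Transitioning cells, which the authors placed between CB and CC, showed a mixed change from CB, with 4 members higher and 2 lower, where 14.8% of all genes were higher and 14.1% lower. The median of the members was 0.14, against 0.02 over all genes. Tapbp was higher by 0.37 ± 0.11 (adjusted p = 0.00529) and Tap2 by 0.35 ± 0.08 (adjusted p = 0.000162). H2-K1, at 613, 461, 619 and 436 CPM, fell by 0.28 on the log2 scale (SE 0.05, adjusted p = 3.17e-05) in 4 of 4 libraries, and it rose again toward CC. H2-D1 stayed at -0.01 (adjusted p = 0.945). The calls of B2m at 0.15 (adjusted p = 0.0252) and Psmb8 at 0.14 (adjusted p = 0.02) were lost without C (adjusted p of 0.106 and 0.165), and without K (0.144 and 0.110), and that of Psmb9 at -0.15 (adjusted p = 0.0343) without CK (0.0863). B2m without CK had an adjusted p of 0.232, and Tapbp 0.0927.

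Prememory cells parted the chains and Tapbp from Psmb8, Psmb9 and Tap2. In prememory over CC, 4 members were higher and 4 lower, where 17.8% of all genes were higher and 17.2% lower, with a median of 0.21 against 0.004 over all genes. The higher ones were Tapbp at 0.73 ± 0.12 (adjusted p = 3.08e-06), H2-K1 at 0.43 ± 0.06 (adjusted p = 1.6e-08), B2m at 0.42 ± 0.06 (adjusted p = 4.21e-08) and H2-D1 at 0.21 ± 0.05 (adjusted p = 0.00124). Psmb9 fell by 1.04 (SE 0.08, adjusted p = 5e-16), Psmb8 by 0.95 (SE 0.06, adjusted p = 1.06e-20) and Tap2 by 1.05 (SE 0.14, adjusted p = 1.19e-08), each in 4 of 4 libraries. H2-D1 did not pass after thinning (adjusted p = 0.132). The call of Tap1 at -0.38 (adjusted p = 0.0158) was not steady, and its CPM was higher in prememory cells in 2 of 4 libraries. This call was lost after thinning (adjusted p = 0.2198) and without C (0.0887) or WT (0.128). The constitutive Psmb5 rose by 0.26 (adjusted p = 0.00133), with Psmb6 at 0.01 (adjusted p = 0.961) and Psmb7 at -0.20 (adjusted p = 0.323). Other proteasome genes of the pathway did not fall with Psmb8 and Psmb9. Psmb10 was at -0.18 (adjusted p = 0.109), Psme1 at 0.09 (adjusted p = 0.34) and Psme2 at 0.85 (adjusted p = 1.95e-17). Prememory cells were few in K, with 93 cells, and in CK, with 115.

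Among the other genes of the pathway, 7 of 23 were higher and 2 lower in prememory cells than in CC. The highest were Cd1d1 at 2.63 (adjusted p = 6.72e-09) and Irf1, an interferon-regulated transcription factor, at 1.60 (adjusted p = 9.81e-10). The lower ones were the non-classical heavy chains H2-M3, at -0.81 (adjusted p = 6.02e-06), and H2-T23, at -0.76 (adjusted p = 5.67e-05). MHC class II genes, which serve presentation to CD4 T cells, were lower in 10 of 11 cases and higher in 0, with a median of -1.11. They had been higher in CC than in CB in 11 of 11 cases, with a median of 0.95. The class I chains therefore had a positive log2 fold in both steps and class II genes a positive and then a negative one.

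**Figure D2:**
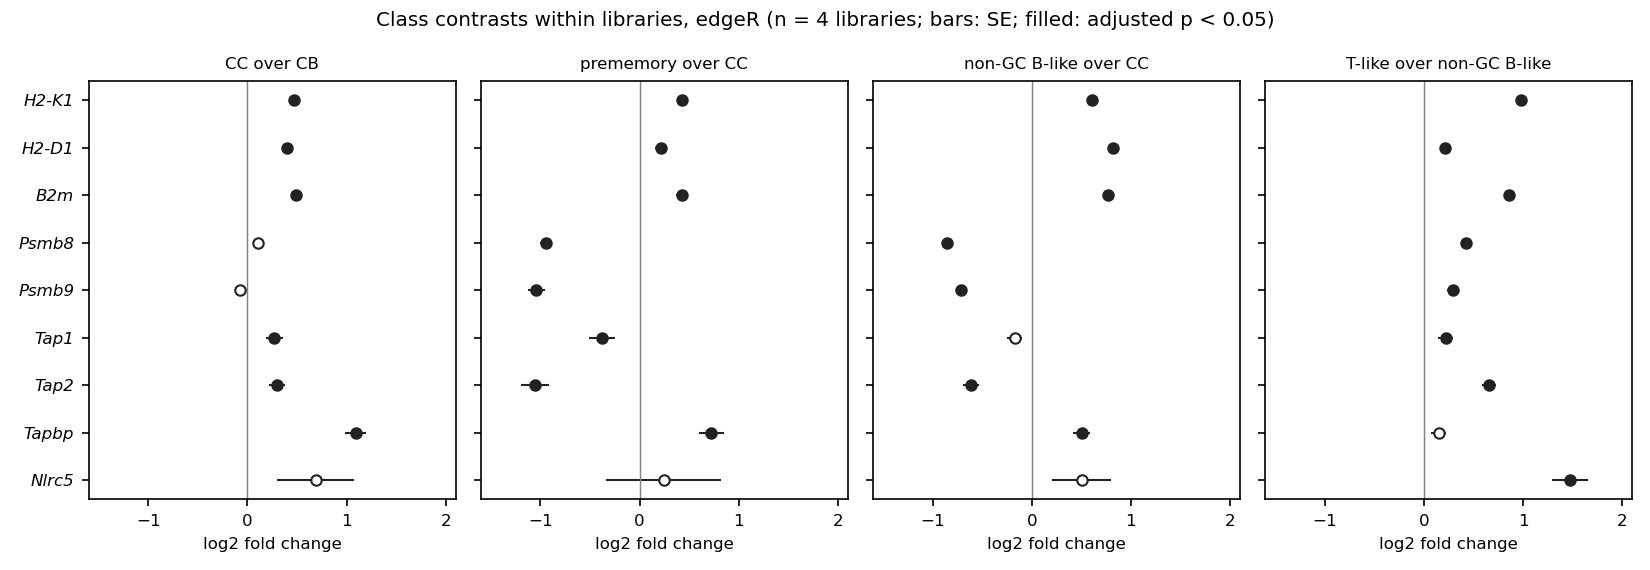
Log2 fold of each member in 4 class contrasts (x axis, n = 4 libraries), with the SE from the fit to all classes as bars and adjusted p below 0.05 as filled points. Heavy and light chains are above 0 in the 4 contrasts drawn (in transitioning over CB, not drawn, H2-K1 was at -0.28 and H2-D1 at -0.01), while Psmb8, Psmb9 and Tap2 are below 0 in prememory over CC and in non-GC B-like over CC.

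The same division held between non-GC B-like cells and CC. The sort gate was IgD-, yet Ighd, the IgD heavy chain gene, was among the naming markers and the top genes of cluster 9. These non-GC B-like cells are those the sort let through and not B cells outside the GC at large. In non-GC B-like cells over CC, 4 members were higher and 3 lower, where 25.2% of all genes were higher and 26.3% lower, with a median of 0.50 against 0.03 over all genes. H2-D1 rose by 0.82 ± 0.05 (adjusted p = 3.71e-21), B2m by 0.77 ± 0.05 (adjusted p = 2.07e-19), H2-K1 by 0.61 ± 0.05 (adjusted p = 5.09e-15) and Tapbp by 0.50 ± 0.09 (adjusted p = 1.66e-06). Psmb8 fell by 0.85 (adjusted p = 1.45e-22), Psmb9 by 0.71 (adjusted p = 6.83e-16) and Tap2 by 0.61 (adjusted p = 1.93e-09), and Tap1, at -0.17, did not pass (adjusted p = 0.0652). Nlrc5 was at 0.50 ± 0.30 (adjusted p = 0.159). The constitutive subunits were lower too, with 3 of 3 past the threshold and a median of -0.62. Of 20 interferon response genes, 19 were higher and 0 lower in non-GC B-like cells. Without the cells led by such genes, Tap1 passed, at -0.22 (adjusted p = 0.0199).

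In T-like over non-GC B-like cells, 8 of 9 members were higher and 0 lower, where 29.8% of all genes were higher and 29.5% lower, with a median of 0.43 against -0.01 over all genes. Nlrc5 had the largest fold, 1.47 ± 0.18 (adjusted p = 3.73e-10), from 6.41, 7.53, 3.66 and 9.38 CPM in non-GC B-like cells. H2-K1 followed with 0.99 ± 0.05 (adjusted p = 1.85e-24) and B2m with 0.86 ± 0.05 (adjusted p = 8.77e-23). H2-D1 rose by only 0.22 ± 0.05 (adjusted p = 9.26e-05), as did Tap1 (0.22 ± 0.07, adjusted p = 0.00751), which missed the threshold without WT (adjusted p = 0.0547). Neither passed without the block for library, with adjusted p of 0.146 for H2-D1 and 0.1604 for Tap1. Tap2 at 0.66, Psmb8 at 0.43 and Psmb9 at 0.29 passed, each with a higher CPM in 4 of 4 libraries. Tapbp at 0.15 did not pass (adjusted p = 0.0765), although it passed without WT (0.0239) or K (0.0318). The sort gate was B220+, so that these T-like cells are those the sort let through and not T cells of the spleen at large.

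Within T-like and non-GC B-like cells, clusters made without the members differed in H2-K1. T-like cluster 1, led by Izumo1r, Maf and Tnfrsf4, held H2-K1 at 3960.3, 3079, 3922 and 3055 CPM. T-like cluster 5, led by Dapl1, Cd8b1 and Igfbp4, held it at 2371, 2145, 2652 and 2099 CPM, below cluster 1 in all 4 libraries. Non-GC B-like cluster 10, led by Plac8, Cr2 and Cd1d1, held H2-K1 at 1969, 1648, 2190.5 and 1613.5 CPM. In the larger cluster 9, led by Ly6d, H2-K1 was at 1265, 1151, 1384 and 1048 CPM, again lower in all 4. H2-D1 went the other way there, at 2000.1, 1954, 1909 and 1751 CPM in cluster 10 and 2146, 2072, 2203 and 1878 CPM in cluster 9. In each of these 4 clusters H2-K1 was lower in C and in CK than in WT.

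Along the authors' pseudotime the chains climbed in CPM and the proteasome subunits did not. Annotated cells of each library were cut into 5 bins of equal size by their rank in that library, and early CB and CB together filled most of the first bin and CC and prememory cells most of the last. H2-K1 was at 685, 474, 697 and 410.3 CPM in the first bin and 1194, 985, 1132 and 786 CPM in the last, a ratio of 1.74, 2.08, 1.62 and 1.92. The ratio was 1.84, 2.13, 1.72 and 1.93 for B2m and 3.11, 2.76, 2.13 and 2.51 for Tapbp. H2-D1 was higher at each of the 4 steps in all 4 libraries, as was B2m, and its ratio was 1.5, 1.87, 1.68 and 1.90. Psmb9 was highest in the first bin of all 4 libraries and ended at 0.70, 0.76, 0.76 and 0.87 of its start. Psmb8 ended at 0.70 and 0.78 of its start in WT and C but at 0.98 in both K and CK, whose last bin held 84 of 517 and 98 of 791 prememory cells, against 117 of 246 in WT and 189 of 409 in C. Tap1 and Tap2 ended at 0.81 to 1.27 of their start. These folds are a description, since the rank was itself made from expression.

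**Figure D3:**
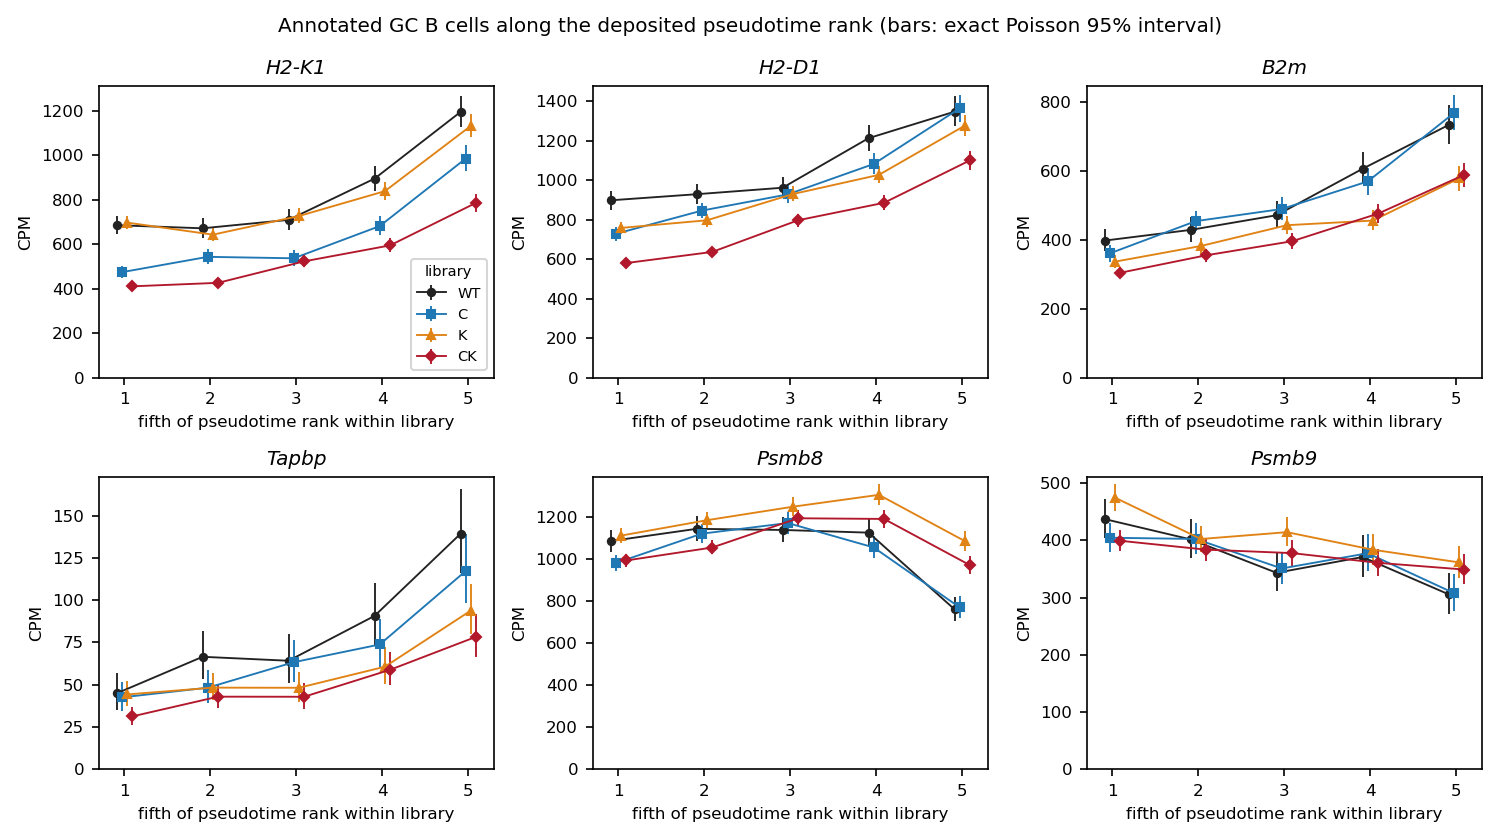
CPM of 6 members (y axis) in 5 equal bins of the deposited pseudotime rank within each library (x axis), with exact Poisson 95% intervals. H2-K1, H2-D1, B2m and Tapbp are highest in the last bin of all 4 libraries, and Psmb9 in the first.

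Whether the genotypes differed in class I expression was addressed by the log2 ratio of CPM over WT, and a gene was called when its log2 ratio was at least 0.32 in size and the library pair held 100 or more UMIs of it in that class. Of the 9 members, 8 had that many in CB and in CC, and Nlrc5 did not. In CB, C had 2 lower members, K had 1 and CK had 6, with 0 higher in any. Over all genes, 12.3% were lower and 13.2% higher in C, 29.6% and 13% in K, and 19.4% and 18.8% in CK. The members had medians of -0.20 (C), -0.05 (K) and -0.37 (CK), beside -0.01, -0.08 and -0.02 over all genes. In CC, C had 2 lower members, K had 0 and CK had 3, with 0 higher, and with medians of -0.07, -0.08 and -0.24 beside 0.03, -0.06 and 0.04 over all genes. There 7.41% of all genes were lower and 9.45% higher in C, 29.5% and 10.6% in K, and 9.61% and 12.8% in CK. Relative to the median gene, rather than the total, lower genes made up 58.2% instead of 69.4% of calls in K CB, 61.7% instead of 73.6% in K CC and 54.0% instead of 43.0% in CK CC. All genes of K had a median of -0.11 in non-GC B-like and -0.15 in T-like cells, which its member ratios there contain.

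Of the members in CK CB, the heavy chains stood lowest. H2-K1 had a log2 ratio of -0.81 (-0.93 to -0.69) and H2-D1 one of -0.59 (-0.70 to -0.49), from the levels given above. Tap2 was at -0.44 (-0.77 to -0.10), Tap1 at -0.39 (-0.70 to -0.07), B2m at -0.34 (-0.50 to -0.18) and Tapbp at -0.33 (-0.84 to 0.22). Psmb9, at -0.15 (-0.30 to 0.01), and Psmb8, at -0.06 (-0.16 to 0.04), had intervals that contain 0. So did Tapbp, which was called lower by the size of its ratio, without regard to the interval. The 8 members were thus all below 0 in CK CB, and the proteasome subunits least.

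Part of this was also present in other cells of the CK library. H2-K1 was below WT in CK in CC at -0.32 (-0.42 to -0.23), in non-GC B-like cells at -0.35 (-0.41 to -0.29) and in T-like cells at -0.25 (-0.29 to -0.22). The CB ratio minus the T-like ratio was -0.56 (-0.68 to -0.43) for H2-K1, -0.45 (-0.56 to -0.34) for H2-D1 and -0.41 (-0.57 to -0.25) for B2m. In CC the same differences were -0.07 (-0.17 to 0.03), -0.06 (-0.15 to 0.03) and -0.17 (-0.30 to -0.04). Tapbp in CC, at -0.47 (-0.78 to -0.15), differed from its T-like ratio by -0.37 (-0.72 to -0.02). In CC the ratios of H2-K1 and H2-D1 therefore lay within counting error of those in T-like cells, and in CB they did not.

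H2-K1 was also below WT in C. Its ratio was -0.46 (-0.59 to -0.33) in CB, -0.33 (-0.43 to -0.22) in CC, -0.18 (-0.23 to -0.14) in non-GC B-like cells and -0.29 (-0.33 to -0.26) in T-like cells. Over the 7 classes with at least 50 cells in every library other than NK-like, H2-K1 was below WT with an interval below 0 in 7 of 7 in C and in 7 of 7 in CK. K went differently, at -0.05 (-0.17 to 0.07) in CB, 0.18 (0.09 to 0.27) in CC and 0.12 (0.09 to 0.15) in T-like cells. H2-D1 in CB was below WT in both C, at -0.23 (-0.34 to -0.12), and K, at -0.28 (-0.39 to -0.18). Tap2 in CB was at -0.60 (-0.98 to -0.21) in C and -0.37 (-0.70 to -0.02) in K. B2m was above WT in C in CC, at 0.15 (0.03 to 0.27), and in T-like cells, at 0.12 (0.07 to 0.16), the opposite of H2-K1 in the same cells. All 3 ratios share the 1 WT library.

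**Figure D4:**
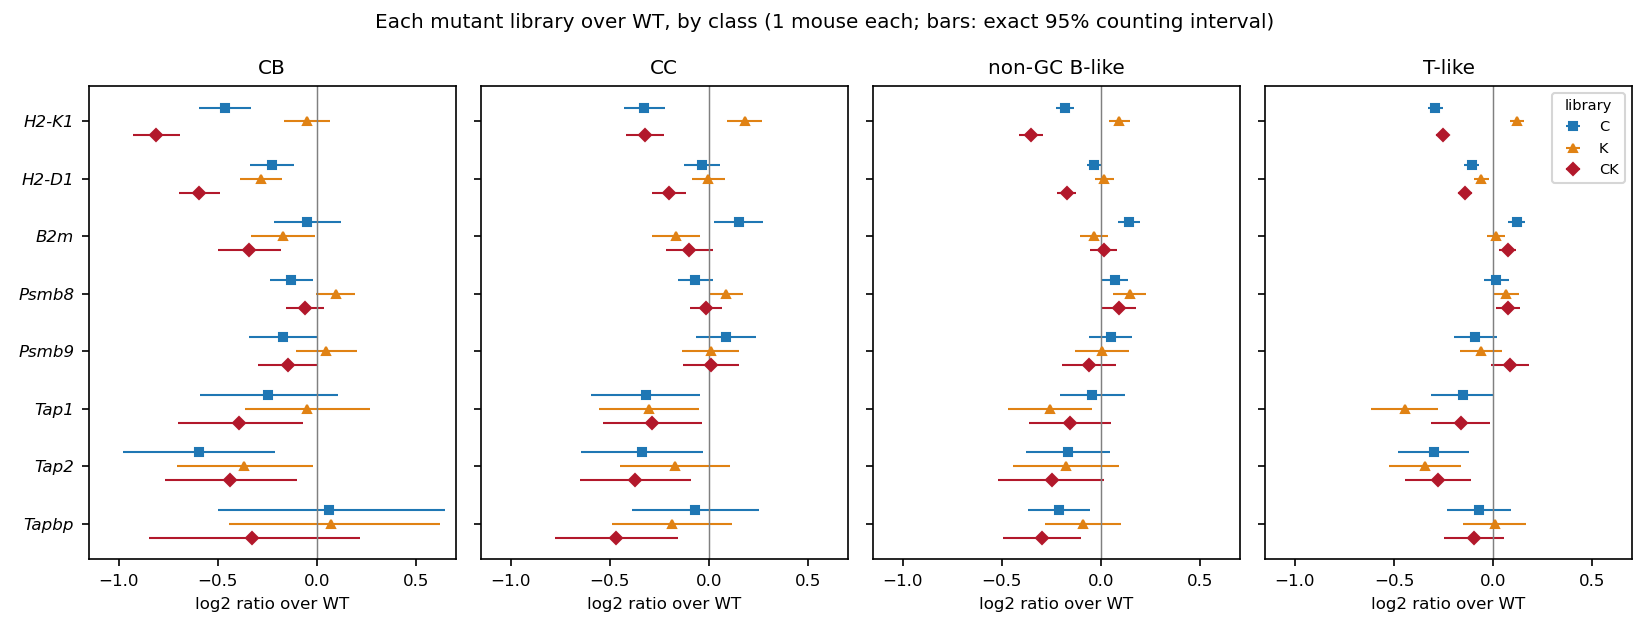
Log2 ratio of CPM in each mutant library over WT (x axis) for 8 members (Nlrc5 had too few UMIs) in 4 classes, 1 mouse each, with exact 95% intervals for counting error. H2-K1 of C and CK lies below 0 in each class, and the CK value of -0.81 in CB is the lowest shown.

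Other measures moved with the CB ratios. The CB of WT were 59.6% from cluster 8, led by Cdc20, and 17.5% from cluster 0, led by histone genes. Those of CK were 34.4% from cluster 8 and 50.5% from cluster 0, and those of K 41.1% from cluster 17, led by Ube2c. Within cluster 8 alone, with 109 CB in WT and 349 in CK, H2-K1 in CK was at -0.80 and the median of the members at -0.26. Annotated cells had fewer than 2500 genes in the authors' table, and 450 unannotated WT cells against 454 of CK received a CB label from their nearest annotated cells. With them added, H2-K1 was at -0.45 in CK and at -0.23 in C, and the median in CK at -0.25. With each cell thinned to 2000 UMIs, H2-K1 in CK CB was at -0.75 and the median at -0.43, where 30 of 1013 CK CB and 9 of 183 WT CB were left out for depth. What the makeup of CB adds to the difference between libraries was not tested.

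Among other genes of the pathway in CK CB, 4 of the 18 that passed the filter of 23 were lower and 2 higher, with a median of -0.13, where 19.4% of all genes were lower and 18.8% higher, so the count lay near that of all genes. H2-Q7, a non-classical heavy chain, was the lowest at -1.49 (-2.03 to -0.94), from 47.8 CPM in WT to 17.0 CPM, and Rfx5 the highest at 0.50 (-0.35 to 1.46). H2-T23 was at -1.01 (-1.42 to -0.58). H2-Q7 was also the gene most like H2-K1 over the 38 combinations of library and class, with r of 0.977, before Emp3 at 0.946, Rnf166 at 0.944, Zyx at 0.940 and H2-Q6 at 0.939. Genes like B2m were Itm2b at 0.974, Irf1 and Zyx at 0.966 and H2-Q7 at 0.965. Genes like Nlrc5 were Jmy at 0.869, Dopey2 at 0.847, Hsdl1 at 0.835 and Zfp945 at 0.821, out of 8955 genes compared. H2-K1 and H2-Q7 can share reads, and none of these values was tested.

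Cells led by interferon response genes were set beside the other cells of their class. Clusters 18 (non-GC B-like) and 19 (T-like), led by Ifit3 and Ifit1, contributed 39 to 87 and 29 to 50 cells per library. Psmb9 in them was at 435, 444, 568 and 461 CPM in non-GC B-like cells, against 252, 259.6, 243.5 and 239.7 CPM in the other cells of the class. Its fold was 1.71 to 2.33 in non-GC B-like cells and 1.09 to 1.48 in T-like cells. Psmb8, at 1.07- to 1.66-fold and 1.22- to 1.61-fold, and Tapbp, at 1.18- to 2.16-fold and 1.71- to 2.28-fold, were higher in 4 of 4 libraries in both classes. Tap1 was higher in 4 of 4 in non-GC B-like cells and 3 of 4 in T-like cells. B2m was higher in 3 of 4 in non-GC B-like cells, at 0.99- to 1.47-fold, and in 4 of 4 in T-like cells, at 1.02- to 1.28-fold. Tap2 was higher in 2 of 4 in both classes, and Nlrc5 in 2 of 4 and 1 of 4, on few UMIs. These cells were few, and the counting intervals of the compared levels lay apart in only part of the libraries. In non-GC B-like cells that was 4 of 4 for Psmb9 and 2 of 4 each for Psmb8, Tapbp, Tap1 and B2m. In T-like cells it was 3 of 4 for Tapbp, 2 of 4 each for Psmb8, Tap1 and B2m, and 1 of 4 for Psmb9. H2-K1 was not higher in any library in non-GC B-like cells, at 0.91- to 0.97-fold, and was higher in 2 of 4 in T-like cells, at 0.82- to 1.02-fold. H2-D1 was at 0.99- to 1.12-fold and 0.83- to 0.98-fold. The 2 heavy chains thus stayed within 0.82- to 1.12-fold in these cells. The clusters were found from expression without the members, and the folds are a description with no test.

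**Figure D5:**
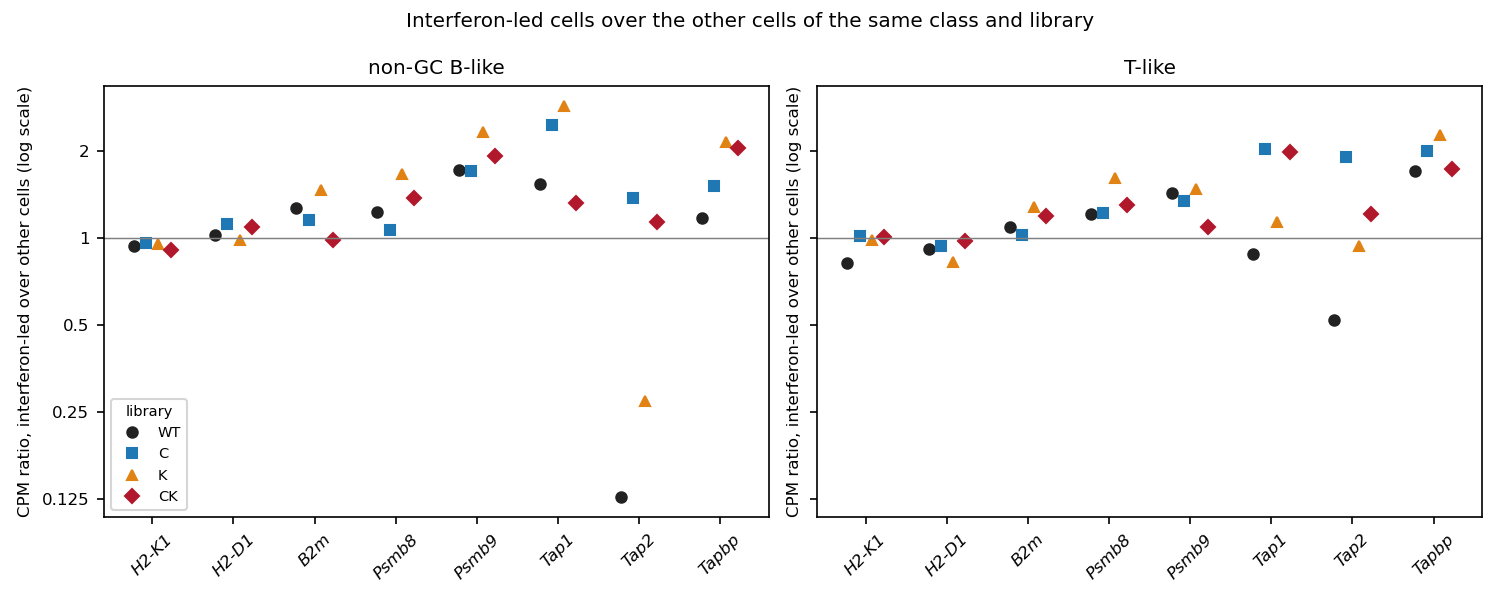
Ratio of CPM in cells of interferon-led clusters over the other cells of the same class and library (y axis, log scale). The members other than Nlrc5 are drawn, without intervals. Psmb9, Psmb8 and Tapbp are higher in the interferon-led cells of all 4 libraries in both classes, while H2-K1 is not higher in any library among non-GC B-like cells.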

How the data were processed

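Splenic B220+IgD- cells of 1 mouse per genotype were sorted and loaded on a droplet platform by the authors. The deposited matrices hold raw UMI counts, made by the authors with Cell Ranger (3.0 in the submitters' processing notes, mm10). Subtypes and pseudotime ranks of 9804 GC B cells were those of the authors' table, made with Seurat 4.0. The 9 members and all gene lists were chosen with earlier results of these data known. Other barcodes with under 8% mitochondrial UMIs were clustered here (scanpy 1.11.5, Leiden resolution 1.0) without the members and named from fixed marker lists. Counts were summed per library and class and divided by total UMIs (CPM). Class contrasts used edgeR 4.0.16 (TMM, filterByExpr, library as block) on 8 classes, and DESeq2 1.42.0 as an alternative. Named were all members, the 2 extremes of each list, and, from the 5 genes most like each of H2-K1, B2m and Nlrc5, those given; 2 others are not reported here. Other pathway genes, interferon-led cells and clusters named beside these were chosen after their values were seen. Methods were tested on simulated data. Alternatives covered scaling, depth, doublets (Scrublet), filters, reference cells and left-out libraries.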

Additional observations from a re-analysis of the deposited data

How the results depend on the processing

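With 1 mouse per genotype, differences over WT cannot be told apart from differences between mice or libraries. Of 360 values of single members over WT, 324 moved by less than their counting interval and 35 by more, and 1 reversed: H2-K1 of CK over WT in CC was 0.031 after the ratio in non-GC B-like cells was subtracted. Counting a 1.5-fold difference left C with 1 lower member in CB, K with 0 and CK with 2, and C and CK with 0 and 0 in CC. At least 400 UMIs left 1 in C and 0 in K in CB, and 1 in C in CC. The number of members tested and the share of all genes called at these settings are not given here, nor is CK at 400 UMIs. These counts therefore do not set the members against other genes. The median of K over WT in CC was 0.058 after subtraction of the T-like ratio. The median of CK over WT in CB ran from -0.43 with thinned cells to -0.21 after subtraction of the non-GC B-like ratio. Of 504 values in class contrasts, 457 kept their direction and side of the threshold, 35 lost it and 12 gained it. The libraries share no replicate number in the labels. Without the replicate block of libraries, 3 members were higher in CC over CB, 2 in prememory over CC, and 0 higher and 0 lower in transitioning over CB, and H2-D1 (adjusted p = 0.146) and Tap1 (0.1604) lost their calls in T-like over non-GC B-like cells. In transitioning over CB, 2 members were higher with DESeq2 size factors and 2 with thinned cells, and 1 was lower with no filter on low counts. With 1 library left out, 2 to 4 were higher and 1 to 2 lower in transitioning over CB. The shares of all genes called in these refits are not given here either. Nlrc5 was limited by depth. The cause of these changes was not tested.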

Other observations

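MHC class II genes are controlled by Ciita, a relative of Nlrc5. In CK CB, 6 of 11 were lower and 0 higher than in WT by a log2 ratio of at least 0.32 in size, with a median of -0.41, where 19.4% of all genes were lower and 18.8% higher. Ciita was at -0.85 (-1.18 to -0.52), the lowest of the 11, and H2-DMb2 at 0.21 (0.04 to 0.38), the highest. In CK CC, 2 of 11 were lower and 0 higher, with a median of -0.18, where 9.61% of all genes were lower and 12.8% higher. Cd74 was the highest at 0.04, and Ciita was at -0.52 (-0.72 to -0.32). Psmb5, Psmb6 and Psmb7, the constitutive counterparts of the immunoproteasome subunits, were at 0.24 (0.07 to 0.41), 0.06 (-0.14 to 0.26) and -0.07 (-0.39 to 0.26) in CK CB. Each of these values compares 1 mouse with 1 mouse and has no test.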
